A study of Mus musculus with 6 samples.

Results

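A group of NF-kB response genes was followed through the cells of mouse dorsal skin: the secreted cytokines Il6, Csf3 and Lif, the NF-kB feedback regulators Nfkbia, Nfkbiz and Tnfaip3, the cytokine-response genes Socs3 and Cebpd, and the vascular genes Stc1 and Rnd1. These 10 of the 32285 genes counted were chosen by symbol because earlier results of the same data placed them together in one capillary state, so their levels by cell population are given as a description, without a test. Single-cell RNA sequencing was performed on tdTomato+ cells sorted by FACS, and unique molecular identifiers (UMIs), each standing for one captured mRNA molecule, were counted per gene and cell. There were 3 groups of 2 mice, with 1 library per mouse.

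WT mice carried tdTomato, Cdh5-CreERT2 and Krt14-H2BGFP on a C57BL/6;CD1 background and were taken at postnatal day (PD) 20, in telogen, or at PD 32, in anagen. Telogen and anagen are the resting and the growing stage of the hair follicle cycle. Alk1 KO mice carried Alk1 flox/flox, tdTomato and Cdh5-CreERT2 on C57BL/6 and were taken in telogen at PD 25. All mice received tamoxifen at 200 μg/g at PD 17, and the promoter of Cdh5 (VE-cadherin) drove the recombinase, so the sort held every cell type in which Cre had been active together with any cells that passed the gate by other routes. KO and WT telogen mice thus differed in strain, age, time since tamoxifen and the Krt14 reporter as well as in Alk1, and these cannot be told apart. The genotype entry of the KO samples reads wild type, against their titles and descriptions. Acvrl1, the gene that encodes Alk1, stood at 205 and 145 CPM (UMI counts scaled to the same total in every sum of cells) in Capillary-like ECs of WT telogen and at 106 and 100.2 CPM in those of Alk1 KO mice, but 3′ counts need not cover the deleted part, so this is no firm check of the labels.

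NF-kB is held in the cytoplasm by the inhibitor IκBα, the product of Nfkbia. Signals such as TNF, interleukin-1 or microbial products lead to the loss of the inhibitor, and NF-kB then enters the nucleus and switches on cytokine genes together with its own inhibitors, which close the loop. Il6 and Lif act through receptors that share the chain gp130 and the factor STAT3, whose target Socs3 restrains the same receptors, and Csf3 (G-CSF) drives the production and release of neutrophils. Endothelial cells (ECs) of small vessels and veins are known sources of these cytokines in inflamed tissue.

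The 10 genes are placed on GRCm38, all annotated as protein coding. Il6 spans chr5:30013114-30019981, Csf3 chr11:98701263-98703629 and Lif chr11:4257557-4272514, all on the plus strand. Nfkbia spans chr12:55489410-55492647, Nfkbiz chr16:55811375-55838899 and Tnfaip3 chr10:19000910-19015657, all on the minus strand. Socs3 spans chr11:117966079-117970047 on the minus strand, Cebpd chr16:15887286-15891031 on the plus strand, Stc1 chr14:69029238-69041804 on the plus strand and Rnd1 chr15:98663421-98677461 on the minus strand.

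The promoters of the cytokine and of the inhibitor at the centre of the loop are shown because each holds a match to the NF-kB consensus close to the start site. They are the 250 bases before the RefSeq start site on GRCm38.p6, 5′ to 3′ on the strand of the gene, at chr5:30012864-30013113 (plus) for Il6 and at chr12:55492648-55492897 (minus) for Nfkbia, with the match to the NF-kB consensus in capitals.
Il6: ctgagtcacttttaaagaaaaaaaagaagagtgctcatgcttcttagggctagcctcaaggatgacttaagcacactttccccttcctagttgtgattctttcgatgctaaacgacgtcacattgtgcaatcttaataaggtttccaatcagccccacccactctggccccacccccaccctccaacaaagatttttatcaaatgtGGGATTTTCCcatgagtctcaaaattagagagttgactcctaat
Nfkbia: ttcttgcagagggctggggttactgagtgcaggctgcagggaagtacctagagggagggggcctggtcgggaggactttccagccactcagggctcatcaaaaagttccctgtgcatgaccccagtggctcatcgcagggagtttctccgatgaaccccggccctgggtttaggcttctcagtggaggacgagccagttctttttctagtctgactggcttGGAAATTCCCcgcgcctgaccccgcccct

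The match in Il6, GGGATTTTCC, began 44 bases before the start site, and the match in Nfkbia, GGAAATTCCC, 29 bases before it. RefSeq windows were given for 5 of the 10 genes, each with 250 bases before and 50 after the start site. Both strands were searched for the 10-letter NF-kB consensus, for AP-1 (TGANTCA), for STAT (TTCNNNGAA) and for C/EBP (TTNCNNAA). A match to NF-kB stood in 4.51% of 32851 mouse promoters, to AP-1 in 7.81%, to STAT in 8.30% and to C/EBP in 40.7%. Tnfaip3 held 2 NF-kB matches, GGGACACCCC 125 bases and GGAAATCCCC 12 bases before one of its start sites. Lif held an AP-1 match 228 bases before its start and no NF-kB match, and Socs3 held a STAT match, TTCTTAGAA, 154 bases before its start. Il6 also held TGAGTCA, an AP-1 match, at 249 bases and a C/EBP match, TTGTGCAA, at 128 bases before the start site. These matches are a description of the letters and not evidence of binding. Csf3, Nfkbiz, Cebpd, Stc1 and Rnd1 were not in the table of promoters.

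After cells outside 200 to 5000 genes, or with 10% or more of their UMIs from mitochondrial genes, were removed, 20941 remained, of which 19556 fell into the 10 populations described here. Libraries held 10615358 to 43317677 UMIs, the KO libraries fewest, and pairs of libraries shared 1 to 8 of the kept barcodes. Cells were clustered without the 10 genes and named from other markers. The levels given are UMIs summed over a population of 1 library and expressed as CPM of that sum, so that a gene is compared with itself across populations and libraries.

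No cluster met the markers fixed for an Rgcc-type capillary state. The cluster with the highest Il6 was led by Lrat, which encodes an enzyme of retinol storage, with Pcp4l1, Ctsc, Rsad2 and Prdm1, and only 1 capillary marker passed the naming rule in it, so it is called Lrat-led ECs here. Its 1597 cells numbered 109 and 91 in WT telogen, 477 and 676 in WT anagen and 123 and 121 in Alk1 KO telogen. Rgcc averaged 969 CPM in Lrat-led ECs and 1396 CPM in Capillary-like ECs over the 6 libraries, whereas Kdr, the main VEGF receptor, averaged 290.04 and 681 CPM. The label of an Rgcc-type state is therefore not carried by Rgcc itself. Capillary-like ECs comprised 2 clusters, led by Car4 and by Esm1.

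Il6 was highest in Lrat-led ECs, veins and arteries. In Lrat-led ECs it stood at 1639.9 and 1766 CPM in WT telogen, 1655 and 2491 CPM in WT anagen, and 971 and 397 CPM in Alk1 KO telogen. The KO libraries were the lowest and did not overlap with the WT libraries. Over the 6 libraries the mean was 1487 ± 719.9 CPM (SD, n = 6) in Lrat-led ECs, 1167 ± 330.3 CPM in Vein-like and 1031 ± 429.9 CPM in Artery-like ECs. Lrat-led exceeded Vein-like ECs in the 4 WT libraries (log2 ratio 0.07 to 0.69) and in neither KO library (-0.09 and -0.86). Against Artery-like ECs the split was the same, at 0.31 to 1.90 in WT and -0.35 and -0.63 in KO libraries. Vein-like exceeded Artery-like ECs in 4 of 6, so neighbours in this order did not separate over the 6 libraries together. Pericyte- and vSMC-like cells followed at 805 ± 375 CPM and fibroblast-like cells at 725 ± 294 CPM. Capillary-like ECs averaged 367 ± 427 CPM, a spread set by anagen S2, which stood at 1219 CPM against 54.3 to 284 CPM in the other 5 libraries. In that library the summed level of 40 blood EC markers in Capillary-like ECs was 24156 CPM against 44745 CPM in anagen S1, and the part of this in the Il6 value was not tested. Lymph-Col-like and Lymph-Cap-like ECs stood lowest, at 31.2 ± 31.2 and 47.2 ± 30.2 CPM.

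Csf3 followed another order. Vein-like ECs held 3115 and 2975 CPM in WT telogen, 3459 and 3465 CPM in WT anagen and 3962 and 2343 CPM in Alk1 KO telogen. Lrat-led ECs held 2390.1 and 2805 CPM, 1399 and 2269 CPM, and 1520.2 and 699 CPM in the same groups. Vein-like ECs exceeded Lrat-led ECs in 6 of 6 libraries, and Lrat-led exceeded Lymph-Cap-like ECs, the next population, in 6 of 6. Artery-like, Capillary-like and Lymph-Cap-like ECs averaged 547 ± 231, 375 ± 319 and 634 ± 294 CPM (SD, n = 6), and these 3 overlapped.

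Lif was highest in Lymph-Col-like ECs. It was not detected in Lrat-led ECs, with 0 UMIs in each of the 6 libraries, which allows levels of up to 0.594 to 5.37 CPM (3 counts per library, for counting error only). Lymph-Col-like ECs held 34.6 and 36.9 CPM in WT telogen, 63.9 and 28.3 CPM in WT anagen and 14.3 and 11.9 CPM in Alk1 KO telogen. The KO libraries were the lowest. Fibroblast-like cells came next, at 2.37 to 22.1 CPM, above Lymph-Cap-like ECs, at 3.75 to 21.6 CPM, in 4 of 6 libraries, whereas Artery-like, Vein-like and Capillary-like ECs held at most 1.93 CPM.

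**Figure D1:**
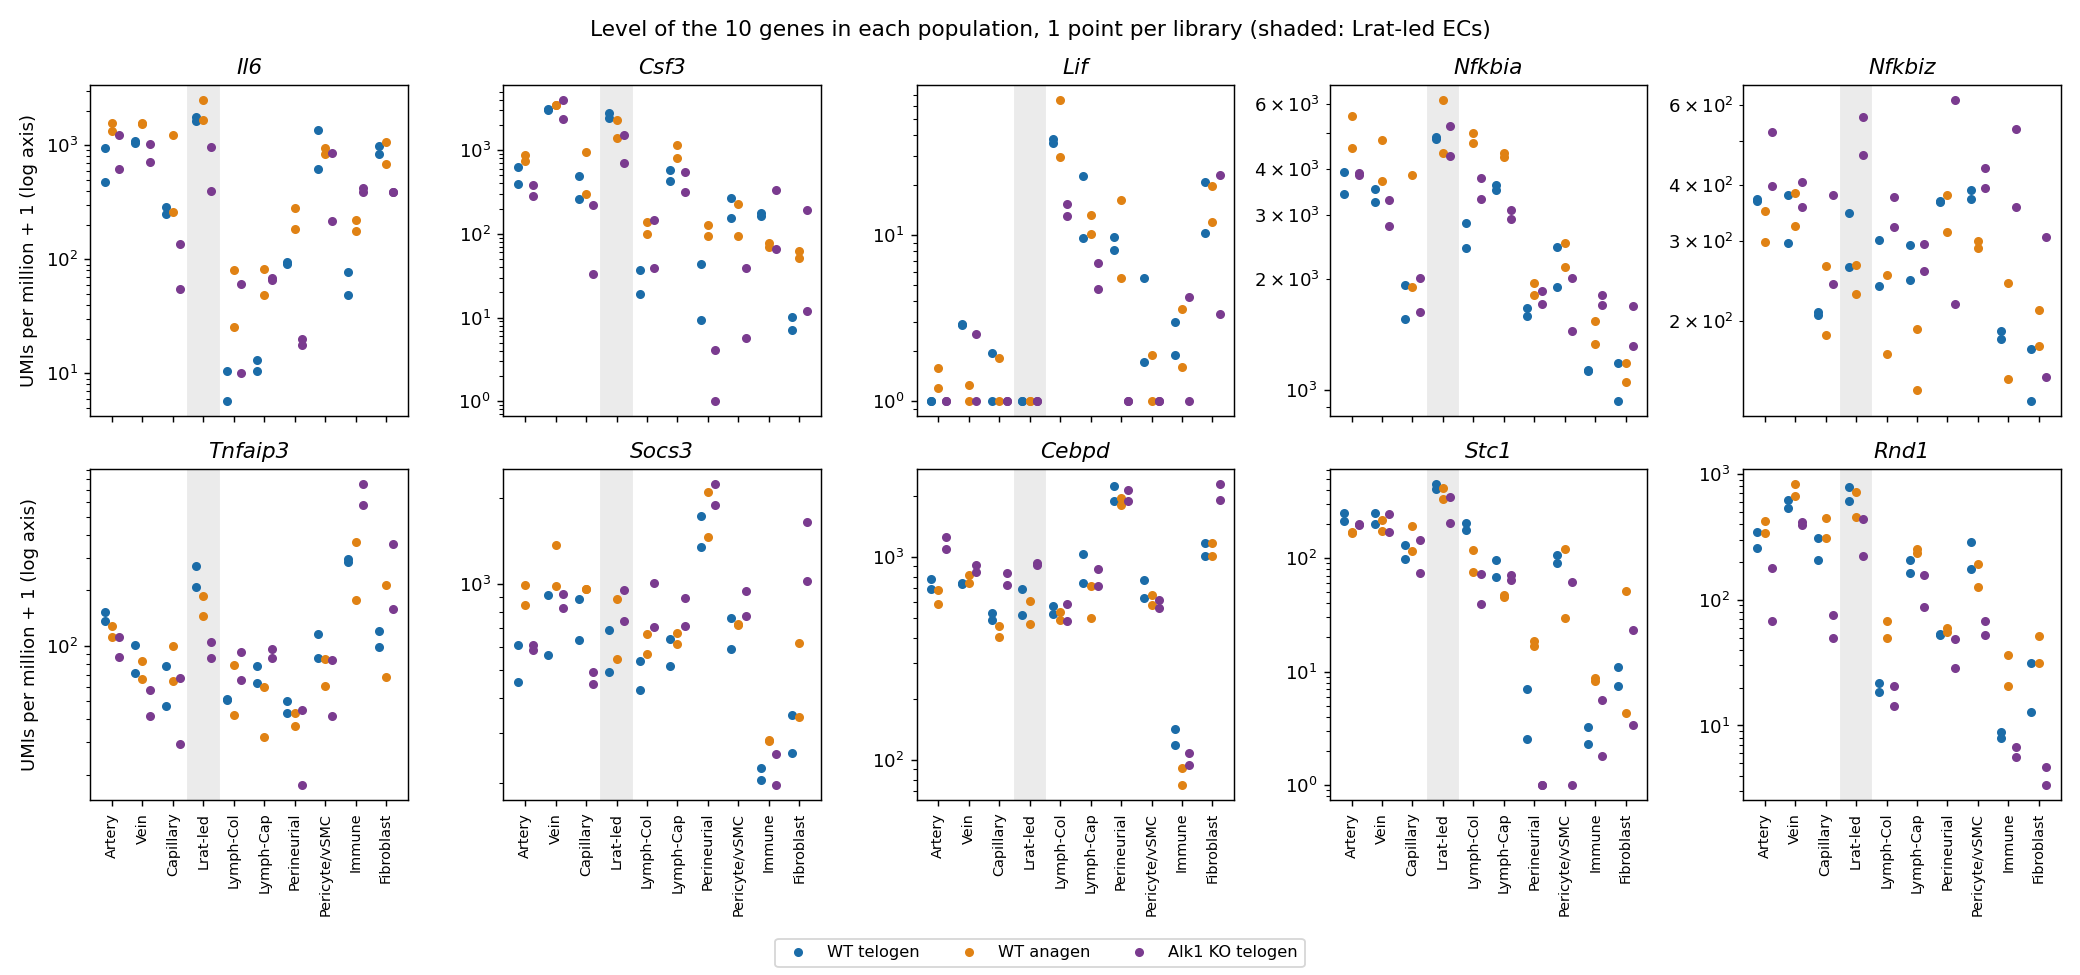
Level of each of the 10 genes (CPM plus 1, log axis) in each population, with 1 point per library coloured by group and the Lrat-led ECs shaded. Il6, Nfkbia, Stc1 and Rnd1 stood high in Lrat-led ECs, Csf3 stood highest in Vein-like ECs, and Lif was at 0 in Lrat-led ECs. Socs3 was highest in Perineurial-like cells, as was the mean of Cebpd, which overlapped with that of fibroblast-like cells.

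Of the feedback regulators, Nfkbia was abundant in all ECs. Lrat-led ECs held 4866 and 4824 CPM of Nfkbia in WT telogen, 4419 and 6154 CPM in WT anagen and 5229 and 4340.0 CPM in Alk1 KO telogen. Capillary-like ECs of the same libraries held 1926, 1561, 1910.2, 3853, 2021 and 1626 CPM, so Lrat-led ECs were the higher in every library. Nfkbiz, which encodes the nuclear regulator IκBζ, averaged 355 ± 134 CPM (SD, n = 6) in Lrat-led ECs, close to the 384 ± 75.6 CPM of Artery-like and the 357 ± 40.8 CPM of Vein-like ECs. Tnfaip3, which encodes the ubiquitin-editing inhibitor A20, was highest in immune-like cells at 409.7 ± 216 CPM, and among ECs in Lrat-led ECs at 166 ± 69.0 CPM. Lrat-led ECs exceeded Artery-like ECs in Tnfaip3 in 4 of 6 libraries.

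Socs3, the feedback inhibitor of gp130 receptors, and Cebpd, a transcription factor of the acute-phase response, did not single out Lrat-led ECs. Perineurial-like cells, which ensheath the nerves, held the most Socs3, 1353 to 2253 CPM, above each of the other 9 populations in all 6 libraries. Socs3 in Lrat-led ECs averaged 719 ± 184 CPM (SD, n = 6), between Capillary-like ECs at 729 ± 236 CPM and fibroblast-like cells at 708 ± 544 CPM. Cebpd averaged 1979 ± 165 CPM in Perineurial-like cells and 687 ± 196 CPM in Lrat-led ECs. Fibroblast-like cells came next to Perineurial-like cells, at 1424 ± 540 CPM, and were exceeded by them in 4 of 6 libraries.

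Stc1, which encodes a secreted glycoprotein hormone, and Rnd1, which encodes a small GTPase that loosens the actin cytoskeleton, were highest in blood ECs. Stc1 stood at 406 and 453 CPM in Lrat-led ECs of WT telogen, 329.7 and 415 CPM of WT anagen and 347 and 202 CPM of Alk1 KO telogen, and exceeded Vein-like ECs, the next population, in 6 of 6 libraries. Rnd1 averaged 576 ± 166 CPM (SD, n = 6) in Vein-like and 536 ± 206 CPM in Lrat-led ECs, which did not separate (4 of 6 libraries), and 266 ± 128 CPM in Artery-like ECs. Outside blood ECs, Stc1 averaged 113 CPM in Lymph-Col-like ECs, which did not separate from the 125 CPM of Capillary-like ECs (3 of 6 libraries), and Rnd1 averaged 182 CPM in Lymph-Cap-like ECs and 149 CPM in pericyte- and vSMC-like cells. In immune-like cells Stc1 averaged 4.01 CPM and Rnd1 13.3 CPM.

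Within each library, Lrat-led ECs were compared with Capillary-like ECs. The log2 ratio of CPM, taken for the 9 genes other than Lif, had a median over the genes of 1.34 and 1.92 in WT telogen, 1.19 and 0.68 in WT anagen and 1.37 and 1.42 in Alk1 KO telogen. The median over all genes in the same libraries lay between -0.23 and -0.06. The ratio was positive in 6 of 6 libraries for Il6 (1.03 to 2.87), Csf3 (1.25 to 4.45), Nfkbia (0.68 to 1.63), Tnfaip3 (0.65 to 2.54), Stc1 (0.49 to 2.25), Rnd1 (0.55 to 2.56) and Nfkbiz (0.01 to 0.95). For Cebpd it was positive in 5 libraries (-0.03 to 0.52) and for Socs3 in 3 (-0.85 to 0.96). Against Vein-like ECs the log2 ratio was positive in 6 libraries for Nfkbia, Tnfaip3 and Stc1 and negative in 6 for Csf3 (-1.75 to -0.08). The genes were chosen for this contrast, so none of these ratios is a test.

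**Figure D2:**
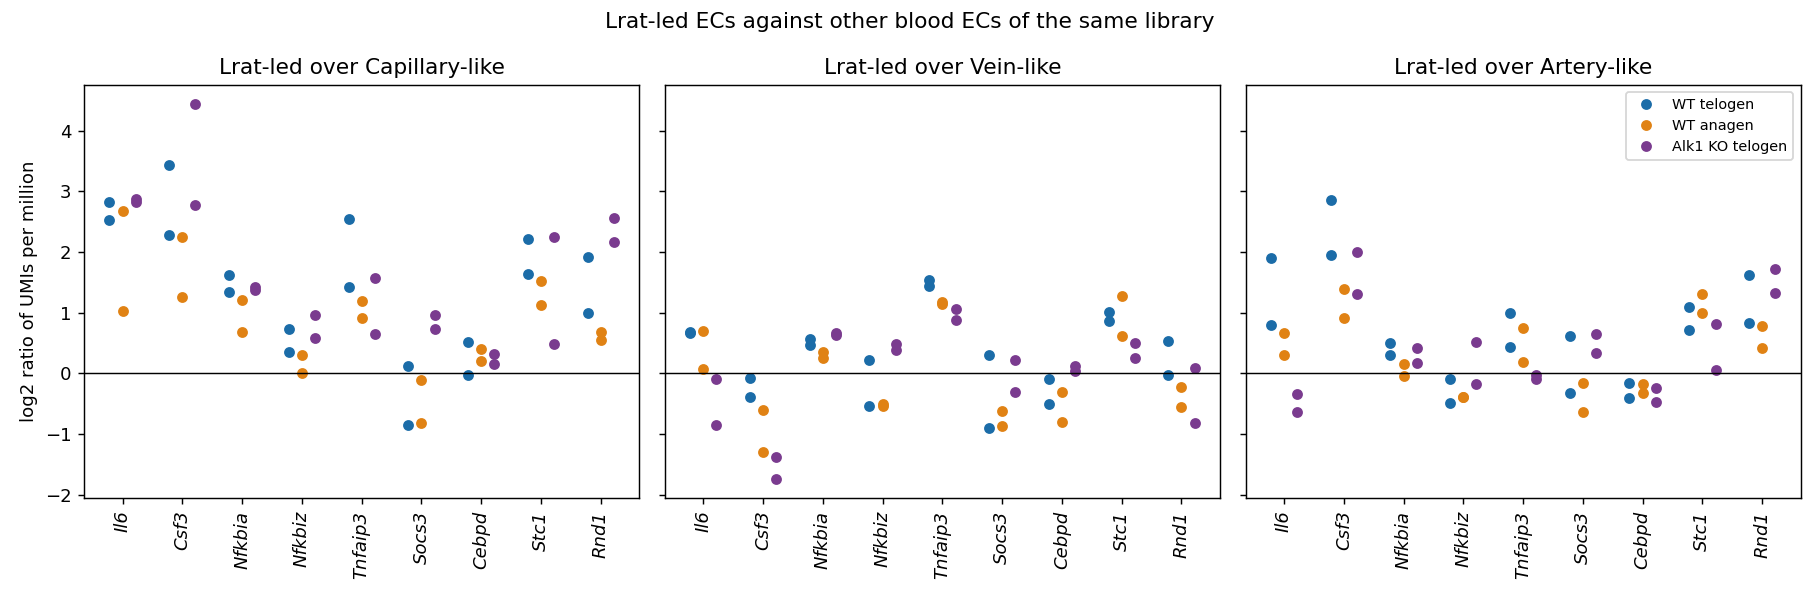
Log2 ratio of CPM of Lrat-led ECs over Capillary-like (left), Vein-like (middle) and Artery-like (right) ECs of the same library, for the 9 genes detected in both, with 1 point per library. Against Capillary-like ECs the ratio of Il6 and Csf3 was above 1 in all 6 libraries, and against Vein-like ECs the ratio of Csf3 was below 0 in all 6.

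Levels summed over cells do not tell how many cells held a transcript. Cells were thinned to 1500 UMIs each, and shallower cells (74 of the Lrat-led ECs) were left out. At this depth 881 of 1523 Lrat-led ECs, or 57.8% (exact binomial 95% interval 55.3 to 60.3), had at least 1 UMI of Il6, and 71.8% did before thinning. The interval treats the pooled cells as independent and leaves out the spread between mice. Anagen S2 alone gave 666 of these cells. The share was 43.8% in Vein-like, 34.0% in Artery-like, 21.6% in Capillary-like and 2.12% in Lymph-Col-like ECs, where free RNA may contribute and where the median depth before thinning was 4124 UMIs against 7223 in Lrat-led ECs. The Capillary-like share was 40.6% in anagen S2 and 4.47 to 17.8% in the other 5 libraries. By library, the Il6 share in Lrat-led ECs was 48.5% and 51.2% in WT telogen, 52.4% and 71.5% in WT anagen and 34.3% and 32.7% in Alk1 KO telogen. The KO libraries were again the lowest. Csf3 was found in 39.7% of Vein-like and 38.1% of Lrat-led ECs, Nfkbia in 90.1% and Stc1 in 27.6% of Lrat-led ECs. Stc1 was found in 0.244% of immune-like cells, to which free RNA may contribute. That share is no background for Il6, since blood ECs held more UMIs of Il6 than of Stc1. In WT telogen S1 they held 3899 against 993.

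**Figure D3:**
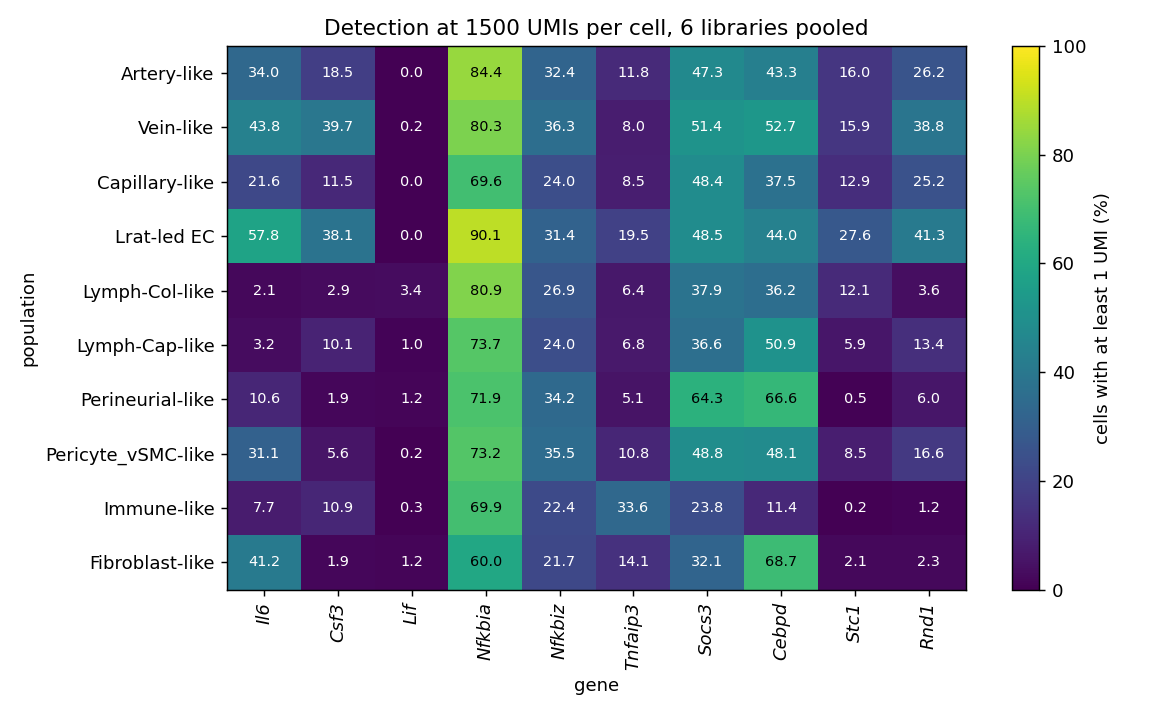
Share of cells (%) with at least 1 UMI of each gene after thinning to 1500 UMIs per cell, by population, over the 6 libraries together. Lrat-led ECs had the highest shares for Il6 (57.8%), Nfkbia (90.1%), Stc1 (27.6%) and Rnd1 (41.3%), and lymphatic ECs had shares of Il6 of 2.1% and 3.2%.

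Single Lrat-led ECs carried several of the 10 genes at once. After thinning, a mean of 3.98 genes per cell was detected in Lrat-led, 3.67 in Vein-like, 3.14 in Artery-like, 2.60 in Capillary-like and 2.12 in Lymph-Col-like ECs. Il6 and Csf3 were found together in 26.7% and 32.9% of Lrat-led ECs in WT telogen, 22.6% and 42.2% in WT anagen and 14.7% and 5.77% in Alk1 KO telogen. In Vein-like ECs the shares were 24.3% and 25.0%, 35.5% and 40.5%, and 18.4% and 12.2%, so neither population was the higher throughout. In Capillary-like ECs the share was 15.95% in anagen S2 and 0.465 to 6.47% in the other 5 libraries. Transcripts were unevenly spread. The tenth of Lrat-led ECs with the most UMIs of a gene held 52.9 to 89.2% of the Csf3 UMIs of a library and 35.8 to 66.5% of the Il6 UMIs, but 23.8 to 30.2% of the Nfkbia UMIs.

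The first comparison asked whether the genes differ between WT mice in telogen, at PD 20, and in anagen, at PD 32. Age and time since tamoxifen, given at PD 17, differed with the stage. They cannot be told apart from it in any value below. Summed counts of anagen and telogen WT libraries were tested with edgeR's quasi-likelihood test and Benjamini-Hochberg adjustment over all genes tested in a population, and calls required a fold above 1.3 as well as an adjusted p below 0.05. In Lrat-led ECs none of the 9 genes tested was called, whereas 0.732% of all genes were (69 of 9425). Lif did not pass the filter on low counts in blood ECs. None of the 9 had an unadjusted p under 0.05, and DESeq2 called none either. Il6 came nearest, with a log2 difference of 0.41 (edgeR's quasi-likelihood test, SE 0.19, adjusted p = 0.33). Csf3, at 2390.1 and 2805 CPM in telogen and 1399 and 2269 CPM in anagen, differed by -0.38 on the log2 scale (SE 0.21), and by -0.77 without anagen S2, where it was called. The 2 against 2 libraries limit what could be seen and cannot give an exact permutation p below 0.333.

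In lymphatic ECs Il6 was called higher in anagen in both populations, and Csf3 in Lymph-Col-like ECs. In Lymph-Cap-like ECs Csf3 differed by 1.02 on the log2 scale (SE 0.19, edgeR adjusted p = 0.057), just short of a call. Lif was called in neither, at 0.58 on the log2 scale in Lymph-Col-like and -0.35 in Lymph-Cap-like ECs. In Lymph-Col-like ECs, the collecting vessels, 4 of 10 genes rose, among 1.19% of all genes called higher. Nfkbia stood at 2429 and 2850.3 CPM in telogen and 4989.7 and 4713 CPM in anagen, without overlap (log2 fold change 1.01, SE 0.14, edgeR adjusted p = 0.0061). Csf3 rose from 35.8 and 18.1 CPM to 98.6 and 138 CPM (log2 fold change 2.23, SE 0.29, edgeR adjusted p = 0.0056). Il6 rose from 9.54 and 4.70 CPM, 16 and 7 UMIs, to 24.5 and 79.7 CPM, 58 and 104 UMIs (log2 fold change 2.87, SE 0.53, edgeR adjusted p = 0.025). Rnd1 rose from 20.9 and 17.5 CPM to 48.2 and 66.6 CPM (log2 fold change 1.68, SE 0.25, edgeR adjusted p = 0.0088). None of these groups overlapped, but the genes were selected as called and the share over all genes was not counted. In Lymph-Cap-like ECs, the initial lymphatics, Il6 rose from 12.1 and 9.40 CPM to 47.6 and 81.2 CPM (log2 fold change 2.62, SE 0.33, edgeR adjusted p = 0.026), among 0.372% of genes called higher. That call was lost without either telogen library, with DESeq2, with the replicate number as a block and under 5% mitochondrial UMIs, and the call of Il6 in Lymph-Col-like ECs with DESeq2 and with all 6 libraries in one fit.

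Il6 in both lymphatic populations stayed far below its level in blood ECs of the same libraries. The summed level of the 40 blood EC markers in Lymph-Col-like ECs was 2256 and 2491 CPM in telogen and 2718 and 3211 CPM in anagen, and in Lymph-Cap-like ECs 5379 and 5736 CPM against 5254 and 6447 CPM. Its part in these differences was not tested. Without likely doublets, the 4.03 to 4.94% of cells in each library with the highest Scrublet scores, the log2 fold change in Lymph-Col-like ECs was 1.58 for Il6 (edgeR adjusted p = 0.073) and 1.16 for Rnd1 (edgeR adjusted p = 0.093), which were then not called, and 1.75 for Csf3 and 1.01 for Nfkbia, which were.

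Whether the stage difference itself differed between lymphatic and blood ECs was tested in one model over both, with the library as a block. Summed over all lymphatic ECs, Il6 stood at 10.6 and 6.66 CPM in telogen and at 34.5 and 80.4 CPM in anagen, whereas in blood ECs it stood at 906 and 765 CPM and at 1076 and 1749.9 CPM. The lymphatic libraries did not overlap between stages, nor did those of blood ECs. The difference of lymphatic minus blood ECs was 1.90 on the log2 scale for Il6 (SE 0.26, edgeR adjusted p = 0.0021). Csf3 stood at 194 and 253 CPM and then 401 and 593 CPM in lymphatic ECs and at 1497 and 1389.6 CPM and then 1106 and 1856 CPM in blood ECs, where the stages overlapped, and its difference was 1.14 (SE 0.20, edgeR adjusted p = 0.019). These 2 of the 10 genes were called, among 0.217% of all genes called for a more positive stage difference in lymphatic than in blood ECs. Without likely doublets neither was, at 0.92 (adjusted p = 0.26, edgeR) for Il6 and 1.003 (adjusted p = 0.13, edgeR) for Csf3. Without telogen S1 the call of Csf3 was lost, and without telogen S2 both were.

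In blood ECs Il6 was called in Vein-like ECs alone, from 1037 and 1098 CPM in telogen to 1575 and 1539 CPM in anagen, without overlap (log2 fold change 0.65, SE 0.12, edgeR adjusted p = 0.034). There 0.56% of genes were called higher, and the call was lost without either telogen library and with all 6 libraries in one fit. The log2 difference of Il6 was larger, but not called, in Artery-like ECs (1.13, SE 0.25, edgeR adjusted p = 0.062) and Capillary-like ECs (1.54, SE 0.59, edgeR adjusted p = 0.55). An unadjusted p under 0.05 was found for 6 of 9 genes tested in Artery-like and 5 of 9 in Vein-like ECs, and the share over all genes was not counted. Socs3 rose in Artery-like ECs, from 612 and 452 CPM to 845 and 996 CPM (log2 fold change 0.89, SE 0.16, edgeR adjusted p = 0.031), where 0.765% of genes were called higher. That call was lost under 5 of 16 alternatives, namely without a filter on low counts, under 5% mitochondrial UMIs, without likely doublets, without correction between libraries and with marker scores in place of clusters. No gene of the 10 was called in Capillary-like ECs, where 0.07% of all genes were. Il6 and Nfkbia were the 2 with an unadjusted p under 0.05 there, a share not counted over all genes, and DESeq2 called none. The 7 calls in ECs became 24 without anagen S1 and 14 without anagen S2, with the remaining anagen library assumed to vary like the telogen libraries.

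**Figure D4:**
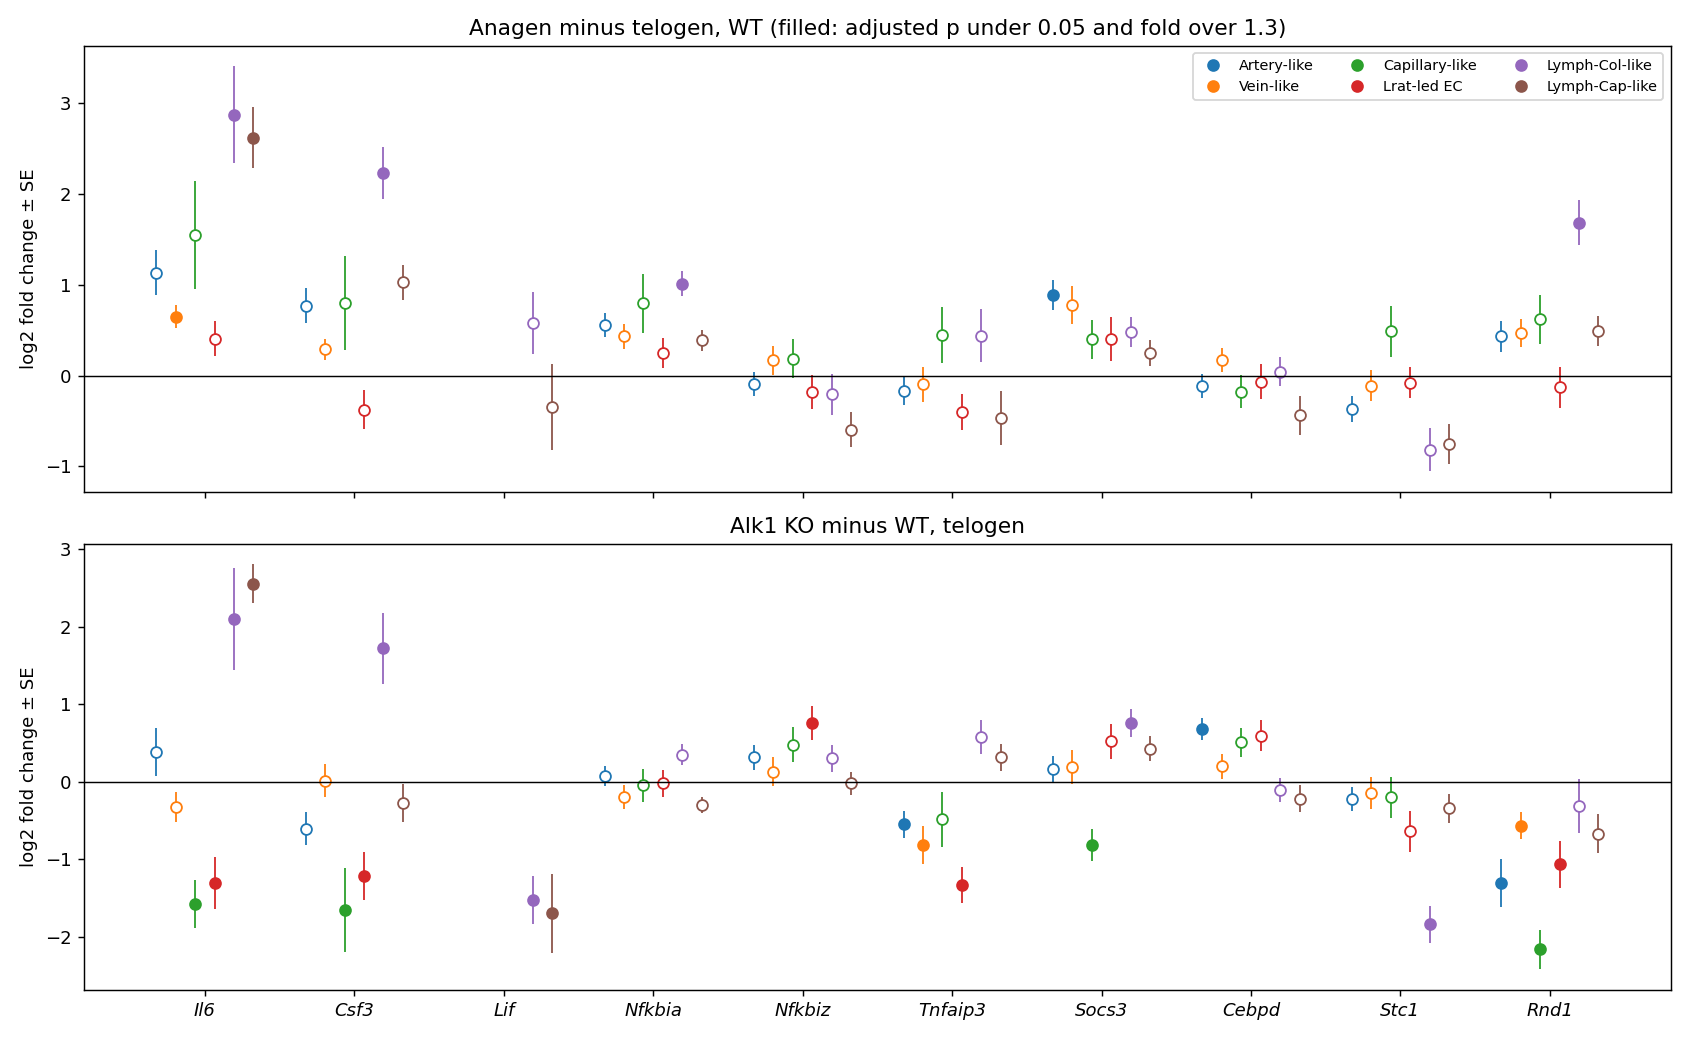
Log2 fold change ± SE from edgeR for each gene and EC population, anagen minus telogen in WT mice (top) and Alk1 KO minus WT in telogen (bottom). Filled points passed an adjusted p of 0.05 and a fold of 1.3, and genes too low to be tested, such as Lif in blood ECs, have no point. In anagen the filled points all lie above 0, and in the KO the filled points of Il6 and Csf3 lie below 0 in Capillary-like and Lrat-led ECs, those of Il6 above 0 in both lymphatic populations and that of Csf3 above 0 in Lymph-Col-like ECs.

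The second comparison set Alk1 KO against WT telogen mice. The percentages of all genes called were far higher here, 15.5% in Lrat-led ECs (1047 of 6759), and the differences in strain and age given above apply to each value. In Lrat-led ECs 4 of 9 genes tested were lower, among 8.42% of all genes, and 1 was higher, among 7.07%.

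Il6 in Lrat-led ECs, at 1639.9 and 1766 CPM in WT and 971 and 397 CPM in KO mice, fell by 1.303 on the log2 scale (SE 0.33, edgeR adjusted p = 0.024). Csf3, at 2390.1 and 2805 CPM against 1520.2 and 699 CPM, fell by 1.22 (SE 0.31, edgeR adjusted p = 0.022). In both the groups were separate, which was not counted over all genes, and KO S2 was the lowest. Tnfaip3, at 206 and 271 CPM against 104 and 84.9 CPM, fell by 1.33 (SE 0.23, edgeR adjusted p = 0.0039). Rnd1, at 612 and 777 CPM against 439.9 and 219.6 CPM, fell by 1.07 (SE 0.30, edgeR adjusted p = 0.035). Nfkbiz rose instead, from 262 and 346 CPM to 565 and 464 CPM (log2 fold change 0.76, SE 0.22, edgeR adjusted p = 0.039). Nfkbia, at 4866 and 4824 CPM against 5229 and 4340.0 CPM, overlapped between the groups, and differed by -0.02 on the log2 scale (SE 0.17). Among these 5 calls the one of Tnfaip3 was made under every alternative tried. Those of Il6 and Csf3 were lost with DESeq2 and without the correction between libraries in the clustering, that of Il6 also at a Leiden resolution of 1.2, and those of Rnd1 and Nfkbiz under all 3 of these, with a limit of 5% mitochondrial UMIs and with the replicate number, S1 or S2, as a block. Without KO S2 the fall of Il6 was 0.77 and that of Csf3 0.73 on the log2 scale, and without KO S1 they were 2.15 and 1.94. Rnd1 fell by 1.71 without KO S1 and by 0.61 without KO S2, its call was lost without WT telogen S2, and that of Nfkbiz was lost without either WT telogen library.

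Capillary-like ECs showed lower Il6, Csf3, Rnd1 and Socs3 in KO mice, 4 of 9 genes, among 15.8% of all genes called lower. Rnd1 stood at 309 and 205 CPM in WT and 74.4 and 49.0 CPM in KO mice and fell by 2.16 on the log2 scale (SE 0.26, edgeR adjusted p = 4.9e-05). Il6, at 284 and 249 CPM against 137 and 54.3 CPM, fell by 1.57 (SE 0.31, edgeR adjusted p = 0.0020). Csf3, at 490.2 and 259 CPM against 221 and 32.0 CPM, fell by 1.65 (SE 0.54, edgeR adjusted p = 0.035), and Socs3, at 887 and 634 CPM against 489.9 and 444 CPM, fell by 0.82 (SE 0.21, edgeR adjusted p = 0.010). The groups did not overlap for any of the 4, but these were selected as called and the share over all genes was not counted. The sizes of the cytokine differences turned on the KO libraries, since without KO S1 the falls of Il6 and Csf3 were 2.47 and 3.73, and without KO S2 they were 1.03 and 0.84. Socs3 was not called without WT telogen S1. Without the correction between libraries in the clustering, Il6, Csf3 and Socs3 were not called, and with DESeq2 or all 6 libraries in one fit Il6 and Csf3 were not. Rnd1 was called under every alternative tried.

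In Artery-like ECs 3 of 9 genes were called and in Vein-like ECs 2 of 9. In Artery-like ECs Cebpd rose from 692 and 776 CPM to 1094 and 1259 CPM (log2 fold change 0.68, SE 0.14, edgeR adjusted p = 0.0048), among 8.33% of genes called higher, whereas Rnd1 fell by 1.304 (SE 0.31, edgeR adjusted p = 0.010) and Tnfaip3 by 0.55 (SE 0.17, edgeR adjusted p = 0.039), among 10.5% called lower. In Vein-like ECs Tnfaip3 fell by 0.82 (SE 0.25, edgeR adjusted p = 0.037) and Rnd1 by 0.57 (SE 0.17, edgeR adjusted p = 0.041), among 9.73% called lower. Without WT telogen S1 none of the 3 genes was called in Artery-like ECs, Tnfaip3 was not called there without WT telogen S2 or KO S2 either, and the fall of Rnd1 was 2.18 without KO S1 and 0.74 without KO S2. The 2 calls in Vein-like ECs were each lost without KO S1 or KO S2. Csf3 in Vein-like ECs overlapped between groups, at 3115 and 2975 CPM in WT and 3962 and 2343 CPM in KO mice.

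In both lymphatic populations of KO mice Il6 was called higher and Lif lower, though Il6 overlapped between the groups in Lymph-Col-like ECs. In Lymph-Cap-like ECs Il6 rose from 12.1 and 9.40 CPM, 14 and 10 UMIs, to 68.3 and 64.4 CPM, 164 and 172 UMIs (log2 fold change 2.55, SE 0.25, edgeR adjusted p = 8.2e-05), among 7.26% of genes called higher. Lif fell there from 8.64 and 21.6 CPM to 5.83 and 3.75 CPM, a fall of 1.70 on the log2 scale (SE 0.51, edgeR adjusted p = 0.042), among 8.98% called lower. In Lymph-Col-like ECs 3 of 10 genes rose, among 8.45% of genes, and 2 fell, among 8.86%. Stc1 fell from 175 and 203 CPM to 38.4 and 70.9 CPM, by 1.84 on the log2 scale (SE 0.24, edgeR adjusted p = 8.2e-05), and Lif from 34.6 and 36.9 CPM to 14.3 and 11.9 CPM, by 1.52 (SE 0.31, edgeR adjusted p = 0.0030). Socs3 rose from 539 and 424 CPM to 707 and 1005 CPM (log2 fold change 0.76, SE 0.19, edgeR adjusted p = 0.011), a call that leaving out WT telogen S1, WT telogen S2 or KO S2 removed. The call of Lif was lost without WT telogen S2 in both lymphatic populations, and in Lymph-Cap-like ECs without KO S1 or KO S2 too. Blood ECs held 4303402 of 28605758 and 3896164 of 39357932 kept UMIs in the WT telogen libraries. In the KO libraries they held 4466737 of 9525626 and 4076379 of 10416750. The part of free RNA from blood ECs in the Il6 differences was not tested.

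Il6 and Csf3 were called higher in Lymph-Col-like ECs too, Il6 by 2.10 on the log2 scale (SE 0.65, edgeR adjusted p = 0.040) and Csf3 by 1.72 (SE 0.46, edgeR adjusted p = 0.017), but each rested on 1 library. KO S1 held 59.9 CPM of Il6 and KO S2 9.13 CPM against 9.54 and 4.70 CPM in WT mice, so that the groups overlapped. Csf3 stood at 37.6 CPM in KO S1 and 147 CPM in KO S2 against 35.8 and 18.1 CPM in WT mice. Both calls were lost without either WT telogen library, that of Il6 also without KO S1, where its log2 fold change was 0.27, and that of Csf3 without KO S2, where it was 0.37. Of the 21 calls in ECs 12 were made without WT telogen S1.

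Outside the endothelium the direction of the cytokines varied between populations. In anagen Il6 rose in Perineurial-like cells, from 89.5 and 94.1 CPM to 278 and 185 CPM (log2 fold change 1.41, SE 0.20, edgeR adjusted p = 0.039), where 0.702% of genes were called higher. Csf3 in fibroblast-like cells rose from 6.14 and 9.29 CPM to 60.5 and 50.2 CPM (log2 fold change 2.95, SE 0.30, edgeR adjusted p = 0.047), the single gene called there (0.0115%). The call of Csf3 was lost with DESeq2, with all 6 libraries in one fit and without likely doublets, with a log2 difference as low as 1.02 over the alternatives, and that of Il6 with a limit of 5% mitochondrial UMIs. These were the 2 calls between stages, and no gene of the 10 was called in pericyte- and vSMC-like cells (0.0446% of genes called) or immune-like cells (0.442%). DESeq2 called none in either. The unadjusted p was under 0.05 for none of the 9 genes tested in the former and for 6 of 10 in the latter, shares not counted over all genes. Blood ECs held 4303402 of 28605758 and 3896164 of 39357932 kept UMIs in the telogen libraries. In the anagen libraries they held 17836213 of 31284549 and 17923740 of 27291894. The part of free RNA from blood ECs in the stage differences outside the endothelium was not tested.

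Between KO and WT mice 11 calls were made outside the endothelium. Il6 fell by 2.42 on the log2 scale (SE 0.35, edgeR adjusted p = 0.00033) in Perineurial-like cells, where 11.5% of genes were called lower, from 89.5 and 94.1 CPM to 18.9 and 16.6 CPM, the latter 6 and 3 UMIs. In fibroblast-like cells it fell by 1.56 (SE 0.24, edgeR adjusted p = 0.0016), from 986 and 840.1 CPM to 390.3 and 386 CPM, and Socs3 rose from 254 and 346 CPM to 1657 and 1024 CPM (log2 fold change 1.84, SE 0.31, edgeR adjusted p = 0.0023). There 17% of all genes were called higher and 20.7% lower, and the KO libraries held 27 and 48 such cells. Of 20 immediate-early genes 11 were called higher and 1 lower in these cells, with summed levels of 12009 and 10904 CPM in WT and 30411 and 28020 CPM in KO mice, and of 10 heat-shock genes 1 was called higher and 4 lower. Their part in the differences was not tested. Csf3 was called higher and Rnd1 lower in fibroblast-like cells, on 1 to 82 UMIs per KO library. Csf3 stood at 6.14 and 9.29 CPM in WT and at 11.0 and 194 CPM in KO mice, and without KO S2 its log2 difference was 0.19, which was not called. Both genes were lower in pericyte- and vSMC-like cells, where 3.53% of genes were, at 264 and 154 CPM against 38.0 and 4.63 CPM for Csf3 and at 284 and 175 CPM against 67.2 and 50.9 CPM for Rnd1. Csf3 fell by 3.16 on the log2 scale (SE 0.59, edgeR adjusted p = 0.022), and by 5.64 without KO S1. The call of Rnd1 was lost without either WT telogen library, and in fibroblast-like cells that of Rnd1 was lost without either KO library.

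In immune-like cells of KO mice 4 of 10 genes rose, among 3.32% of all genes. Il6 stood at 47.3 and 76.5 CPM in WT and 384 and 421 CPM in KO mice (log2 fold change 2.65, SE 0.27, edgeR adjusted p = 0.018). Tnfaip3 rose by 1.16 on the log2 scale (SE 0.20, edgeR adjusted p = 0.030), from 285 and 295 CPM to 579 and 757 CPM, Nfkbiz by 1.19 (SE 0.20, edgeR adjusted p = 0.030) and Nfkbia by 0.58 (SE 0.13, edgeR adjusted p = 0.047). Without either WT telogen library the last 3 were not called. Immediate-early genes, which dissociation and stress induce, moved with them. Of 20 such genes 8 were called higher and none lower, with a median log2 fold change of 1.16, and they summed to 7433 and 7657 CPM in WT and 20461 and 12136 CPM in KO mice. The makeup of these cells differed as well: the cluster led by Icos held 19.7% of immune-like cells in KO and 5.06% in WT telogen mice. The part of either in the 4 calls was not tested.

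Other genes of the pathway, from lists chosen with earlier results known, were examined in Lrat-led ECs beside the 10. Of 16 NF-kB subunits and kinases tested between KO and WT mice none was called, with a median log2 fold change of -0.03 against 0.00 over all genes, and 4 had an unadjusted p under 0.05. How many of all genes had such a p was not counted. Socs3, at an unadjusted p of 0.041 (edgeR), ranked 1993 of 6759 genes, so low p-values were common. Of 21 other NF-kB targets, 2 rose, among 7.07% of all genes called higher, and 5 fell, among 8.42% called lower. Irf1, an interferon-response factor, rose from 307 and 339 CPM to 791 and 948 CPM (log2 fold change 1.42, SE 0.19, edgeR adjusted p = 0.0011). Csf1, the macrophage growth factor, fell by 2.17 on the log2 scale (SE 0.41, edgeR adjusted p = 0.0057), from 88.3 and 124 CPM to 35.1 and 11.2 CPM. The chemokine Ccl7 stood at 28.5 and 39.4 CPM in WT and at 0 and 1.25 CPM in KO mice and was called lower, as were Traf1, a signalling adaptor (fall of 1.84), and Tnfaip2 (fall of 1.61).

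Of 17 cytokine receptors and JAK-STAT components tested, 4 rose, among 7.07% of all genes called higher, and none fell, among 8.42% called lower. Cish, a STAT-induced inhibitor of cytokine receptors, rose from 32.7 and 39.4 CPM to 100.3 and 99.8 CPM (log2 fold change 1.47, SE 0.26, edgeR adjusted p = 0.0044). Lifr, the receptor for Lif, rose from 134 and 147 CPM to 282 and 302 CPM (log2 fold change 1.05, SE 0.19, edgeR adjusted p = 0.0053), Myd88, the adaptor of Toll-like receptors, by 0.93 and Stat3 by 0.67. Between stages, where 0.732% of all genes were called, 2 of 22 other NF-kB targets fell in Lrat-led ECs, Csf1 and Ccl7. No receptor, JAK-STAT gene, subunit or kinase was called. Among them 5 receptor and JAK-STAT genes and 4 subunits or kinases had an unadjusted p under 0.05. How many of all genes had such a p was not counted. Il6, at an unadjusted p of 0.059 (edgeR), ranked 1679 of 9425 genes, so low p-values were common.

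Immediate-early genes, which dissociation and stress also induce, moved with the KO in Lrat-led ECs: 9 of 20 rose and none fell, with a median log2 fold change of 0.51. Of all genes there 7.07% were called higher and 8.42% lower. Their summed level was 9830 and 12049 CPM in WT telogen, 11668 and 11828 CPM in WT anagen and 16534 and 17216 CPM in Alk1 KO telogen, with 0 of the 20 genes undetected. In the KO libraries Egr1, a growth-factor response gene, stood at 1469 and 971 CPM against 421 and 654 CPM in WT. Of 10 heat-shock genes 1 rose and 1 fell. Of 3 haemoglobin genes tested, which erythroid cells express, 2 were called higher in the KO, but through 1 library: the 4 haemoglobin genes summed to 38.4 and 89.6 CPM in WT telogen, 345 and 686 CPM in WT anagen, 28.8 CPM in KO S1 and 2407 CPM in KO S2. Between stages 2 of 4 rose. Markers of immune cells summed to 242 and 142 CPM in WT telogen, 246 and 37.0 CPM in WT anagen and 21.3 and 22.5 CPM in KO libraries, in which 8 of the 12 were at 0. The part of these lists in the differences of the 10 genes was not tested.

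To name the genes most like the set, the profile of each of 8764 genes over 76 sums of population and library was correlated with the mean profile of the 10. Thbd, the anticoagulant receptor thrombomodulin, stood first (Pearson r = 0.79), with Nck1, Ifitm3 and Sbno2 at 0.79, Nod1, Adamts4 and Irgm1 at 0.78, Tshz2 at 0.77, and Abcg2 and the leukocyte adhesion molecule Icam1 at 0.76. Of the 10 themselves, Nfkbia (0.86) and Rnd1 (0.81) were closest to the mean, whereas Tnfaip3 (0.19) and Lif (-0.07) were far from it. The sums share libraries, depth and cell types, so these values are a description.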

How the data were processed

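Gene expression was measured in 6 single-cell libraries from 6 mice. The files hold deposited UMI counts, one per gene (32285) and barcode, which the authors made from Chromium 3′ v3 libraries with Cell Ranger 6.0.1 on mm10, with no normalization and no pooling. Seurat 4.0, named in the submitters' processing notes, was not used on the deposited counts.

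The 10 genes, the gene lists and the tests were chosen with earlier results of these data known. Cells were clustered on 3000 variable genes without the 10 genes, the pathway and quality lists and sex-linked genes, over 30 principal components corrected between libraries and graphs of 20 neighbours (scanpy 1.11.5, leidenalg 0.10.2). Names needed at least 3 markers. No cluster met the rule for an Rgcc-type capillary, so Lrat-led ECs took its place and Capillary-like ECs that of the Kdr-type, both after the clusters were seen. Scrublet marked too few cells (3 of 3171 in WT telogen S1), so doublets were kept.

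UMI counts were summed per library in populations with at least 10 cells in every library, filtered, scaled with TMM and tested with edgeR 4.0.16 (limma 3.58.1, R 4.3.3), WT anagen or Alk1 KO against WT telogen, after a test on simulated data. DESeq2 1.42.0 was an alternative, with other filters on cells and counts, other clusterings, marker scores, a replicate block, all libraries in one fit and each library left out. The cell types are known by markers alone, and a lower sum cannot be told apart from fewer cells with the transcript. Mice are the replicates, and intervals of shares and floors cover counting error only. Named genes were the 10, called genes of the pathway lists, at most 5 per list with the largest change, and the 10 genes of most similar profile. Egr1, Sele, Selp, Ccl2 and the receptors Csf3r, Il6ra and Il6st were named after their values were seen. The rest was done in Python (3.11.15), with matplotlib 3.10.9, pandas 2.3.3, scipy 1.17.1 and numpy 2.4.6.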

Additional observations from a re-analysis of the deposited data

Results flagged for a closer look

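The stage difference of 2 of the genes was not the same in lymphatic and blood ECs. For Il6 the log2 difference of anagen against telogen was larger by 1.90 in lymphatic than in blood ECs (interaction test of edgeR, SE 0.26, adjusted p = 0.0021), and both lymphatic populations rose. For Csf3 it was larger by 1.14 (interaction test of edgeR, SE 0.20, adjusted p = 0.019). Without cells of at least 5% mitochondrial UMIs, as without likely doublets, neither was called. Lymphatic ECs held 30 and 17 UMIs of Il6 in telogen and 144 and 193 in anagen, so the value rests on few molecules. Among 23 other NF-kB targets tested, Sele, Selp, Ccl2 and Ccl7 were called there too. Of all genes, 0.217% were called for a more positive difference. Sele and Selp were also leading genes of the Vein-like cluster. Called as well were 3 haemoglobin genes, transcripts of erythroid cells. The part of transcripts from blood ECs or erythroid cells in these values was not tested.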

How the results depend on the processing

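Of the 43 calls of the 10 genes, 9 were made under every alternative tried and 1 reversed, Csf3 between KO and WT fibroblast-like cells, whose log2 difference was -0.39 with a limit of 5% mitochondrial UMIs. In Lrat-led ECs the genes called between stages numbered 69, and 500 without a filter on low counts, 147 with DESeq2, 45 with all 6 libraries in one fit, 34 under 5% mitochondrial UMIs, 25 without correction between libraries, 22 at a Leiden resolution of 1.2 and 24 to 815 with 1 library left out. Between KO and WT they numbered 1047, and 495 with DESeq2, 336 without the correction and 492 to 1526 with 1 library left out. The 7 calls of the 10 genes in ECs between stages became 18 without the filter, 4 with all libraries in one fit, 4 under 5% mitochondrial UMIs and 6 to 24 with 1 library left out. The 2 calls outside ECs became 12 without the filter, 6 with DESeq2 and 5 to 7 with 1 library left out. Between KO and WT the 21 calls in ECs became 8 with DESeq2 and 12 to 25 with 1 library left out, and the 11 outside ECs became 7 under 5% mitochondrial UMIs, 7 without the correction and 7 to 16 with 1 library left out. The 2 calls between lineages became 0 under 5% mitochondrial UMIs, 0 without likely doublets, 1 with marker scores and 0 to 6 with 1 library left out. The cause of these changes was not tested. The median log2 ratio of Lrat-led over Capillary-like ECs was 1.35 (SD 0.40) and lay between 1.15 and 1.37 in every alternative run. With the replicate number as a block the calls between stages numbered 363 for all genes in Lrat-led ECs, 11 for the 10 genes in ECs and 5 outside them, and with the numbers crossed, a pairing added after the data were seen, 263, 12 and 5. The mice differed between groups, so the number only names a sample, and the differences of S1 and S2 correlated at -0.18 to 0.19 between groups over genes. A lone library was assumed to vary like the other group, and marker scores were not run for Lrat-led ECs or outside ECs. Depth limits Lif in blood ECs, the lymphatic Il6 and the small fibroblast-like KO sums, and 2 mice per group limit every comparison.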

Other observations

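Cell populations with fewer than 10 cells in some library were not tested, and 1 of them, the mast-like cells, held a different set of the genes. Il6 stood at 589 and 435 CPM in mast-like cells of WT telogen mice and Tnfaip3 at 270 and 378 CPM, whereas Csf3 stood at 0 and 2.59 CPM and Rnd1 had 0 UMIs in both libraries, which allows up to 13.5 and 7.76 CPM (3 counts per library).

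Receptors for the secreted cytokines were examined by population. Csf3r, which encodes the receptor of G-CSF, stood at 6.52 to 19.5 CPM in immune-like cells and at 0 to 0.877 CPM in the 6 EC populations. The immune-like sums left out an unnamed cluster of 85 cells led by S100a9 and S100a8, in which Csf3r was not examined. Il6st, which encodes gp130, the chain shared by the receptors for Il6 and Lif, was highest in Vein-like ECs of all 6 libraries, at 655 to 864 CPM, against 213 to 319 CPM in Lrat-led ECs. Il6ra, the receptor chain that binds Il6 itself, stood at 17.9 to 26.3 CPM in Lrat-led ECs and at 74.2 to 169 CPM in immune-like cells.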
